A study of Pyrus pyrifolia with 6 samples.

Results

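Aquaporins are the channel proteins that let water, and in some classes small neutral solutes, cross plant membranes. In the deposited expression table of the watercore study, 56 of 38969 genes were taken as aquaporin genes, because they are protein-coding and their product name holds the word aquaporin. The product names sort them into 18 PIP, 18 TIP, 10 NIP and 7 SIP genes, and 3 genes carry no class in their name. The choice used names alone and no expression value.

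RNA was sequenced from watercore pulp and from healthy pulp of sand pear (Pyrus pyrifolia), with 3 libraries per group and no other group. Flesh with watercore looks glassy, because fluid has taken the place of gas outside its cells. The labels of both groups name the cultivar Qiurong, trees of 5 years in an orchard at Yizheng and a harvest at 120D, and they give no treatment other than the sorting of the picked pulp into diseased and normal. The methods of the study name the cultivar Akibae, older trees and a later day, and the labels call the organ skin where the treatment field and the methods say pulp. The methods call the replicates biological, and nothing ties a library to a single fruit or tree, so p-values measure the spread between these libraries. The libraries held 14431337 to 15290688 counts in watercore pulp and 14382020 to 14871188 counts in healthy pulp.

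Plant aquaporins fall into classes that are named after the membrane or the protein where they were first found. Plasma membrane intrinsic proteins (PIPs) carry water across the cell surface, and tonoplast intrinsic proteins (TIPs) carry it across the membrane of the vacuole, which fills most of a ripe flesh cell. Nodulin 26-like intrinsic proteins (NIPs) pass boric acid, silicic acid and related solutes, and small basic intrinsic proteins (SIPs) are found in the endoplasmic reticulum in Arabidopsis. PIPs are grouped into PIP1 and PIP2 proteins. PIP2 proteins are strong water channels by themselves, and PIP1 proteins often need a PIP2 partner to reach the cell surface.

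In watercore pulp every tested TIP gene rose, PIP genes rose and fell, and the tested SIP genes lay below healthy pulp without reaching the threshold. A call required a change of 1 or more on the log2 scale in either direction, together with an adjusted p under 0.05 in edgeR's quasi-likelihood test over all genes. Of the 56 aquaporin genes, 18 had enough counts to be tested, and 8 of these were called higher and 2 were called lower in watercore pulp. Over all 21200 tested genes, 17.6% were called higher and 7.54% were called lower by the same rule. The 8 higher genes were all 5 tested TIP genes, 2 PIP genes and the single tested NIP gene. The 2 lower genes were both PIP genes. The other 8 tested genes were 5 PIP and 3 SIP genes. The TIP genes LOC103938012 and LOC103948868 and the NIP gene LOC103943247 passed the count filter only because of their watercore counts. Their direction was thus given by the filter. The SIP2-1 gene LOC103939264 passed it through its healthy libraries. The number of higher genes is therefore a description of these members and not a measure of the family. Fewer cells of a type and less RNA per cell cannot be told apart in such bulk libraries.

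By an adjusted p under 0.05 alone, 8 aquaporin genes were higher and 6 were lower, where all tested genes gave 32.3% and 30.4%. In 8 members all watercore libraries lay above all healthy libraries in CPM (counts scaled to library size with TMM factors), and in 7 members they lay below. Over all tested genes these shares were 35.5% and 33.8%. The median log2 fold change was −0.05 over the 18 tested members and 0.00 over all tested genes. The members ranged from −2.36 to 8.19.

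**Figure D1:**
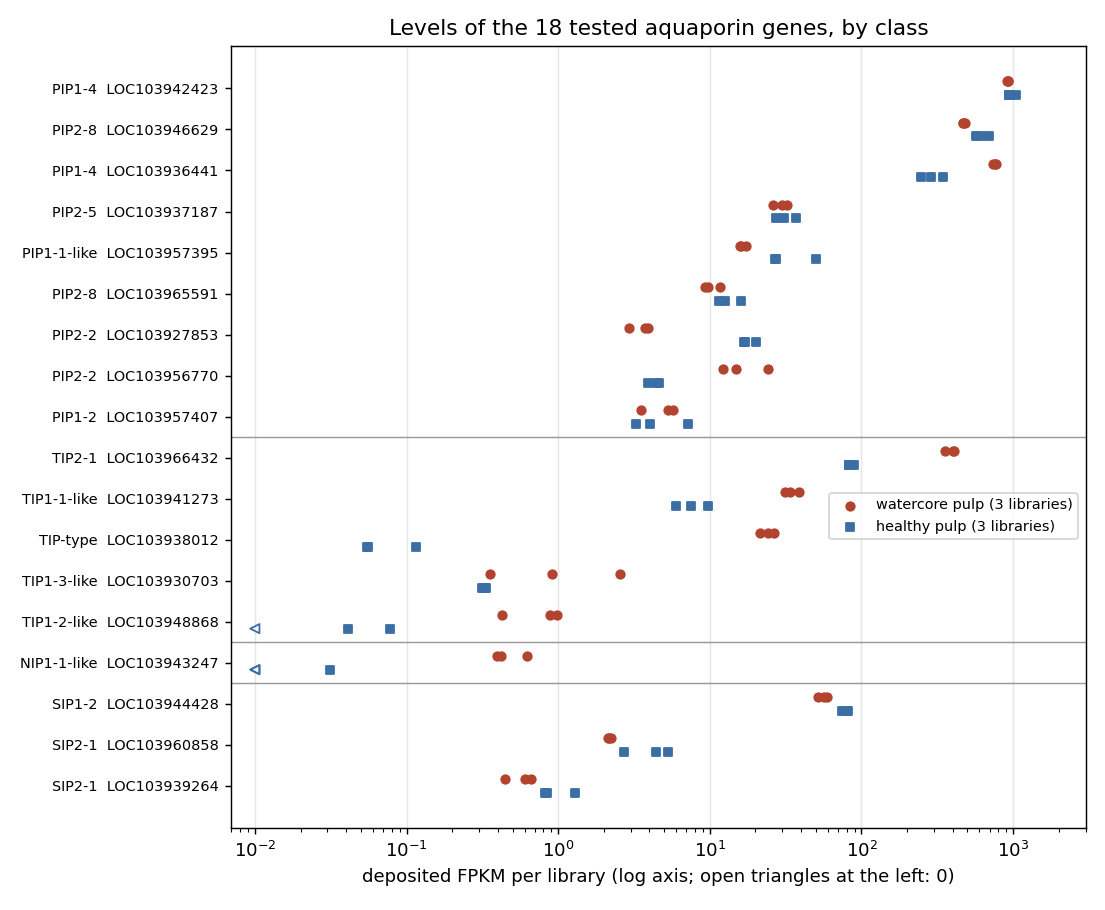
Deposited FPKM of the 18 tested aquaporin genes in each library on a log axis, with genes in rows grouped by class (PIP, TIP, NIP, SIP from top to bottom), circles for the 3 watercore libraries, squares for the 3 healthy libraries and open triangles for values of 0. The 3 most abundant rows are PIP genes, and all 5 TIP rows have every watercore library to the right of every healthy library.

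Few members carried most of the aquaporin transcripts. Levels were compared between genes by the deposited FPKM (fragments per kilobase of transcript, scaled to the size of the library), since counts grow with gene length. The summed FPKM of the family was 2742 ± 37.3 in watercore pulp and 2177 ± 191 in healthy pulp (SD, n = 3 each), and the libraries of the groups did not overlap. The 4 most abundant genes, a pair of PIP1-4 genes, a PIP2-8 gene and a TIP2-1 gene, made up 92.6% ± 0.353 of it in watercore pulp and 90.8% ± 0.281 in healthy pulp. PIP genes held 81.4% ± 0.951 of the summed FPKM in watercore pulp and 91.7% ± 0.684 in healthy pulp. TIP genes held 16.4% ± 0.861 in watercore pulp and 4.31% ± 0.480 in healthy pulp. SIP genes held 2.17% ± 0.101 in watercore pulp and 3.95% ± 0.208 in healthy pulp. The share of TIP genes was thus higher, and that of PIP and SIP genes lower, in every watercore library. These shares are descriptions, without a test. The higher family sum rested on the PIP1-4 gene LOC103936441 and the TIP2-1 gene LOC103966432, both called higher. Without them the other members summed to 1597 ± 22.4 FPKM in watercore pulp and 1799 ± 144 FPKM in healthy pulp. All watercore libraries then lay below all healthy libraries.

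**Figure D2:**
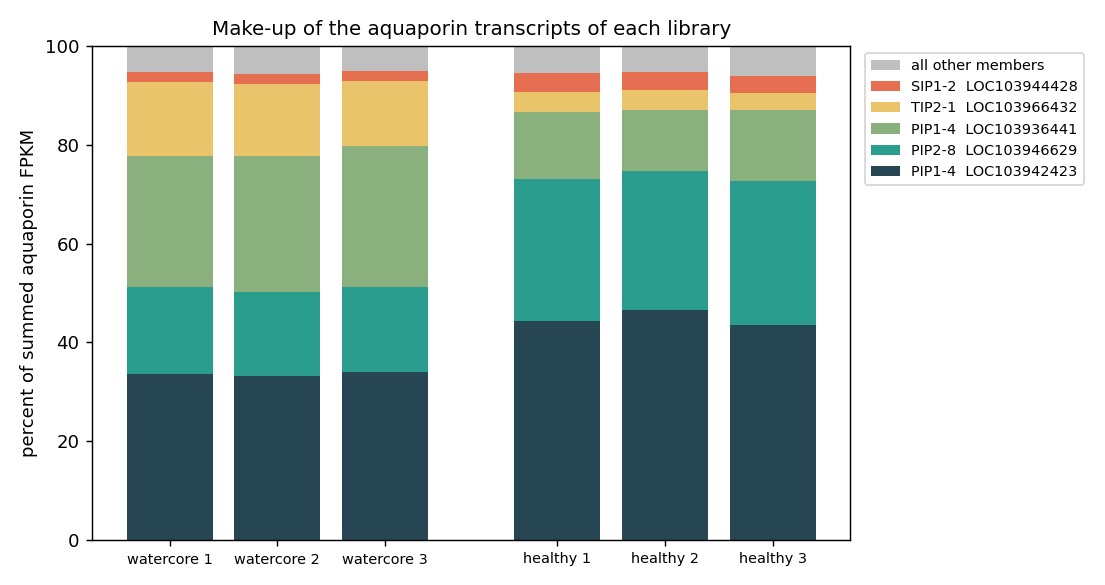
Percent of the summed aquaporin FPKM held by the 5 most abundant members and by all others, with 1 bar per library, watercore libraries on the left and healthy libraries on the right. The PIP1-4 gene LOC103936441 held 26.5% to 28.5% of the bar in watercore libraries and 12.3% to 14.4% in healthy libraries, and the TIP2-1 gene LOC103966432 held 13.3% to 14.8% in watercore libraries and 3.49% to 4.16% in healthy libraries.

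The order of the members by level differed between the groups. In watercore pulp the TIP2-1 gene LOC103966432 followed the 3 leading PIP genes at 389.8 FPKM, with the next member, the SIP1-2 gene LOC103944428, at 55.8 FPKM. In healthy pulp the same 2 genes lay at 85.0 and 79.0 FPKM. The first 5 places were held by the same genes in both groups, and in each group neighbours among them did not overlap in any library. LOC103936441 was second in watercore pulp, and the PIP2-8 gene LOC103946629 held that place in healthy pulp. Places 6 to 10 in watercore pulp, from the TIP1-1-like gene LOC103941273 at 34.8 FPKM to the PIP1-1-like gene LOC103957395 at 16.4 FPKM, overlapped from each gene to the next. The TIP-type gene LOC103938012 was in place 8 in watercore pulp and in place 16 of 18 in healthy pulp.

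Among the PIP1 genes, both genes named PIP1-4 were among the most abundant transcripts of the pulp, and 1 of them rose. LOC103942423 (scaffold NW_008988057.1 from 724613 to 726182, plus strand) was the most abundant aquaporin gene, at rank 44 of 38969 genes by mean FPKM in watercore pulp and at rank 37 in healthy pulp. It had 1118, 1107 and 1106 CPM in the watercore libraries and 1148, 1135 and 1262 CPM in the healthy libraries. The watercore libraries were thus slightly below the healthy ones, by a log2 fold change of −0.09 (standard error 0.06, adjusted p = 0.2 by edgeR), which is not past the threshold. LOC103936441 (NW_008988054.1 from 1008287 to 1009937, minus strand) had 912, 949 and 958 CPM in the watercore libraries and 363, 309.5 and 433 CPM in the healthy libraries. Every watercore library lay far above every healthy library, and the gene rose 2.55-fold (log2 fold change 1.35, standard error 0.11, adjusted p = 1.0e-05 by edgeR). The study's table matches both genes to a PIP1-4 protein, so that they may share reads, and the sources used here do not say how such reads were counted. LOC103936441 held 45.0% ± 0.796 of the summed FPKM of the pair in watercore pulp and 23.1% ± 2.04 in healthy pulp. The pair together had 1677 ± 14.5 FPKM in watercore pulp and 1266 ± 103 FPKM in healthy pulp, without overlap.

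The other tested PIP1 genes were far less abundant. LOC103957395, named PIP1-1-like (NW_008988190.1 from 360462 to 403363, minus strand), had 33.9, 31.0 and 31.6 CPM in the watercore libraries and 53.2, 54.0 and 98.9 CPM in the healthy libraries. Its best protein match in the table is PIP1-3. It fell by 1.09 on the log2 scale (standard error 0.22, adjusted p = 0.0022 by edgeR), and healthy replicate 3 stood well above the other healthy libraries. Without healthy replicate 3 the log2 fold change was −0.74, short of the fold threshold. Its annotated span holds 4 other genes, 3 of them on the same strand, and 1 of these, LOC103957397 (uncharacterized), was called higher at a log2 fold change of 1.28. LOC103957407 (PIP1-2, NW_008988190.1 from 302710 to 303302), a gene model of 492 bases without an annotated protein domain, showed a log2 fold change of −0.01 (adjusted p = 0.99), and its direction changed under 8 other settings besides leaving out a library. Of the remaining PIP1 genes, named PIP1-3, LOC103932262 had 0 counts in all libraries and LOC103940146 had 4 counts in all.

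Among the PIP2 genes, the most abundant did not reach the fold threshold, and 2 genes with the name PIP2-2 moved in opposite directions. LOC103946629 (PIP2-8, NW_008988081.1 from 1104168 to 1105728, minus strand) had 589.7, 566 and 566 CPM in the watercore libraries and 747, 694 and 855 CPM in the healthy libraries. All watercore libraries were lower, by −0.42 on the log2 scale (standard error 0.08, adjusted p = 0.0014 by edgeR), which misses the fold threshold. With offsets for gene length its log2 fold change was −0.18 (adjusted p = 0.065). LOC103927853 (PIP2-2, NW_008988434.1 from 413310 to 415163, minus strand) had 3.82, 4.80 and 5.08 CPM in the watercore libraries and 22.4, 21.9 and 26.4 CPM in the healthy libraries. The groups lay far apart, and the gene fell by 2.36 on the log2 scale (standard error 0.15, adjusted p = 2.6e-06 by edgeR). LOC103956770 (PIP2-2, NW_008988182.1 from 714494 to 716444, plus strand) had 19.4, 31.9 and 16.0 CPM in the watercore libraries and 5.98, 6.09 and 5.22 CPM in the healthy libraries. It rose by 1.96 on the log2 scale (standard error 0.25, adjusted p = 1.5e-04 by edgeR), with watercore replicate 2 highest. The FPKM of LOC103956770 over that of LOC103927853 was 5.01, 6.54 and 3.10 in the watercore libraries and 0.264, 0.274 and 0.195 in the healthy libraries. The ratio thus lay above 1 in every watercore library and below 1 in every healthy library.

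The other PIP2 genes showed little or could not be tested. LOC103965591 (PIP2-8) had a log2 fold change of −0.40 (standard error 0.15, adjusted p = 0.049 by edgeR) with overlapping groups. LOC103937187, the only tested gene of the 6 named PIP2-5, had 36.6 ± 3.98 CPM in watercore pulp and 39.5 ± 6.17 CPM in healthy pulp, with overlapping groups and a log2 fold change of −0.11 (standard error 0.12, adjusted p = 0.46). Of the untested PIP2-5 genes, LOC103934822 had 8, 6 and 10 counts in the watercore libraries and 2, 4 and 3 counts in the healthy libraries. LOC103936639 had 14, 1 and 1 counts in the watercore libraries and 0 in each healthy library, and it was called higher by DESeq2 (adjusted p = 0.038) and by edgeR with no filter on low counts (adjusted p = 0.039). LOC103941235 had 5 counts over all libraries. A group of 4 PIP2 genes lies within 68844 bases of scaffold NW_008988904.1 (from 50073 to 118916). Both PIP2-1-like genes of this group, LOC103937542 and LOC103937535, had 0 counts in all libraries, and its PIP2-5 genes LOC103937541 and LOC103937537 had 6 and 4 counts over all libraries.

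**Figure D3:**
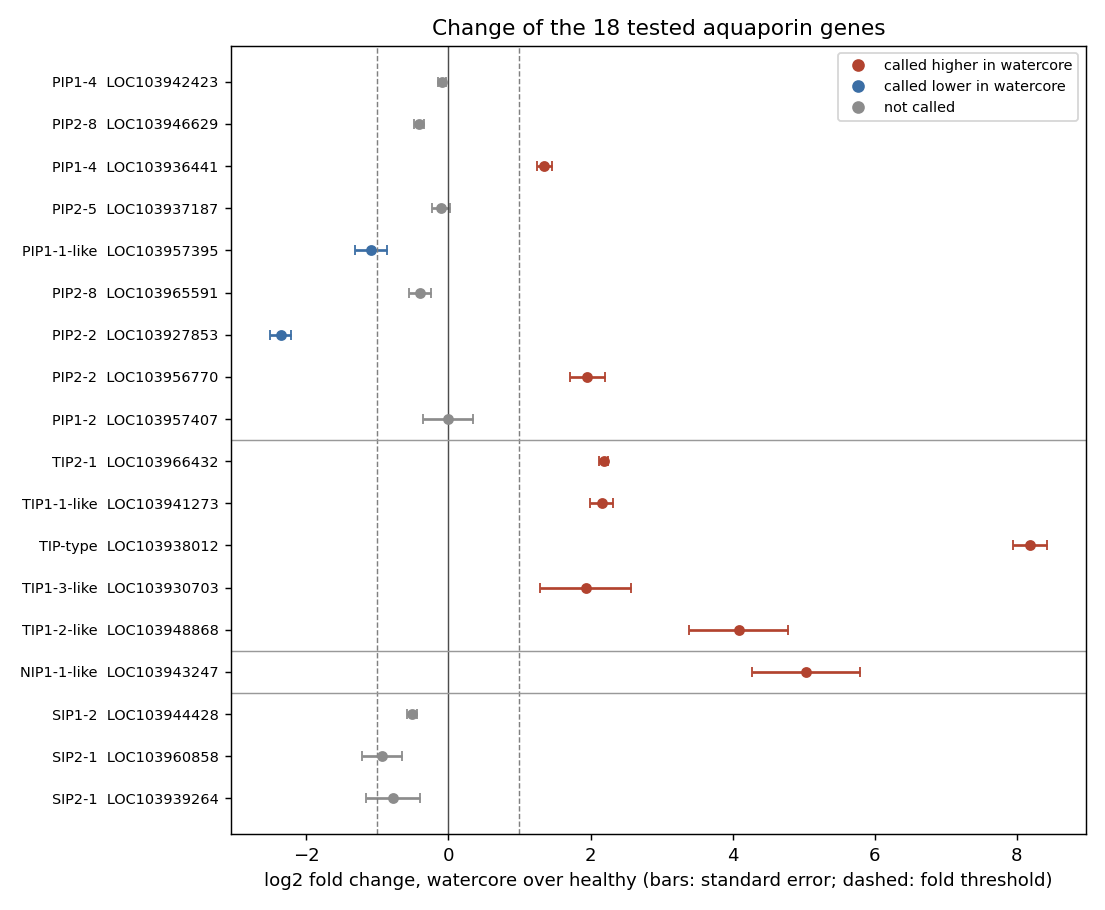
Log2 fold change of watercore over healthy pulp with its standard error for the 18 tested members, in rows grouped by class, with dashed lines at the fold threshold of 1 and red, blue and grey points for genes called higher, called lower and not called. All 5 TIP genes and the NIP gene lie to the right of the threshold, the PIP genes lie on both sides of 0, and the 3 SIP genes lie between −0.93 and −0.51.

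Summed over their members, the PIP1 and PIP2 genes differed in opposite directions. PIP1 genes summed to 2066, 2089 and 2099 CPM in the watercore libraries and to 1566, 1501 and 1797 CPM in the healthy libraries. PIP2 genes summed to 664, 655 and 634 CPM in the watercore libraries and to 834, 769.7 and 948 CPM in the healthy libraries. PIP1 genes held 76.1% ± 0.552 of the summed PIP FPKM in watercore pulp and 65.4% ± 0.486 in healthy pulp. The class as a whole had 2736 ± 7.54 CPM in watercore pulp and 2472 ± 246 CPM in healthy pulp, and healthy replicate 3 lay above all watercore libraries while the other healthy libraries lay below them. The sums are dominated by LOC103942423, LOC103936441 and LOC103946629, and no test was made on them. The higher PIP1 sum rested on LOC103936441 alone, with 940 ± 24.7 CPM in watercore pulp and 368 ± 61.8 CPM in healthy pulp. The other tested PIP1 genes, LOC103942423, LOC103957395 and LOC103957407, were at −0.09, −1.09 and −0.01 on the log2 scale. Without LOC103936441 the PIP1 sum was lower in watercore pulp, as the PIP2 sum was.

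**Figure D4:**
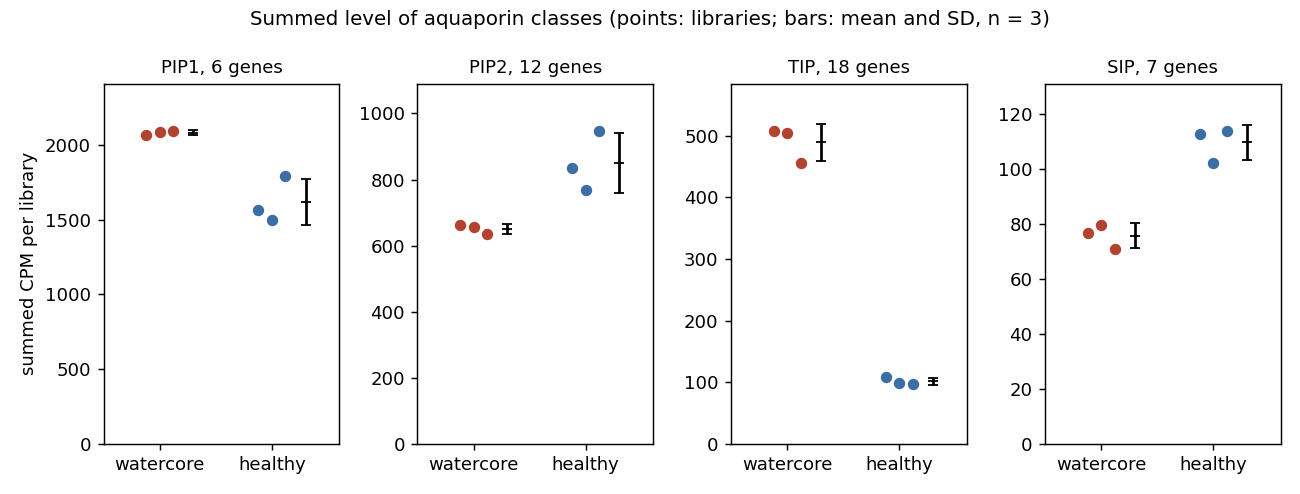
Summed CPM of the PIP1, PIP2, TIP and SIP genes in each library (points), with the mean and SD of 3 libraries beside them, watercore on the left and healthy on the right of each panel, and every axis starting at 0. TIP genes summed to 455 to 508 CPM in watercore libraries and to 97.6 to 107.6 CPM in healthy libraries, and SIP genes to 70.8 to 79.6 CPM in watercore libraries and to 102 to 114 CPM in healthy libraries.

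All 5 tested TIP genes were called higher in watercore pulp, and the class sum was 4.83 times that of healthy pulp. Of these genes, LOC103938012 and LOC103948868 were tested only because of their watercore counts, and the call of LOC103930703 depended on single libraries. The number of TIP calls is therefore a description only. LOC103966432 (TIP2-1, NW_008988048.1 from 1480663 to 1482880, plus strand) accounted for 86.5% ± 0.541 of the summed TIP FPKM in watercore pulp and for 91.2% ± 1.56 in healthy pulp. TIP2-1, also called delta-TIP, carries water and ammonia into the vacuole in Arabidopsis. LOC103966432 had 436, 430.2 and 383 CPM in the watercore libraries and 95.5, 89.3 and 89.8 CPM in the healthy libraries. It rose 4.55-fold (log2 fold change 2.18, standard error 0.07, adjusted p = 1.0e-07 by edgeR), and by rank of mean FPKM it was at place 153 of all genes in watercore pulp and at place 1394 in healthy pulp. LOC103941273 (TIP1-1-like, NW_008989292.1 from 22851 to 24091, plus strand) is named after gamma-TIP, the common vacuolar water channel of growing Arabidopsis cells. It had 38.8, 44.4 and 36.0 CPM in the watercore libraries and 11.1, 8.64 and 6.91 CPM in the healthy libraries, and rose by 2.16 on the log2 scale (standard error 0.16, adjusted p = 7.9e-06 by edgeR).

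The widest difference in the family was that of LOC103938012, named TIP-type (NW_008988938.1 from 112169 to 114208, minus strand). It had 489, 374 and 424 counts in the watercore libraries and 1, 1 and 2 counts in the healthy libraries. Its mean level was 29.1 ± 3.10 CPM in watercore pulp and 0.0920 ± 0.0425 CPM in healthy pulp. The gene was nearly without counts in healthy pulp and stood next to the TIP1-1-like and PIP2-5 genes by FPKM in watercore pulp, with a log2 fold change of 8.19 (standard error 0.23, adjusted p = 7.6e-08 by edgeR). With each library left out in turn it stayed between 8.02 and 8.58. A gene of the opposite strand, LOC103938013 (uncharacterized), overlaps it and had 0 counts in every library.

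The other 2 higher TIP genes were low. LOC103930703 (TIP1-3-like, NW_008988521.1 from 44608 to 46217) had 0.791, 2.02 and 5.63 CPM in the watercore libraries and 0.748, 0.737 and 0.705 CPM in the healthy libraries. The healthy libraries were nearly equal, and the rise (log2 fold change 1.93, standard error 0.64, adjusted p = 0.027 by edgeR) came mostly from watercore replicate 3. Without watercore replicate 3 the log2 fold change was 0.93 (adjusted p = 0.14 by edgeR), and without any 1 healthy library the adjusted p was 0.058 to 0.066. The table gives this gene no protein match and no protein domain, and its given length of 2204 bases is longer than its span. LOC103948868 (TIP1-2-like, NW_008988098.1 from 1078829 to 1080525) had 11, 24 and 22 counts in the watercore libraries and 0, 2 and 1 counts in the healthy libraries, a ratio of 18.9 with an exact 95% counting interval of 6.14 to 94.3 (log2 fold change 4.09, standard error 0.70, adjusted p = 8.7e-04 by edgeR). Such intervals cover counting error only.

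Most TIP genes gave no counts at this depth. Of the 18 TIP genes, 11 had 0 counts in all 6 libraries. They were both TIP3-2 genes, both TIP4-1 genes, all 4 TIP5-1 genes, 2 of 3 TIP2-1 genes and 1 of 4 TIP1-3 genes. TIP3 channels belong to the storage vacuoles of seeds, and TIP5-1 and TIP1-3 are known from pollen in Arabidopsis. A count of 0 over a group allows up to 0.0680 CPM in watercore pulp and 0.0684 CPM in healthy pulp. The TIP3-2 genes LOC103931192 and LOC103946838 were at 0 although other seed genes were not. A list of 26 seed storage and oil body genes summed to 1678 to 1838 CPM in watercore libraries and to 163 to 213.5 CPM in healthy libraries, with 5 of its 10 tested genes called higher (17.6% of all tested genes were), 0 called lower and 10 of 26 at 0 counts throughout. In that list 3 neighbouring storage protein genes, LOC103946294, LOC103946296 and LOC103946298, carried 1675 ± 79.8 CPM in watercore pulp and 114 ± 36.2 CPM in healthy pulp, and the other 23 genes summed to 98.5 ± 5.40 CPM in watercore pulp and 82.0 ± 8.27 CPM in healthy pulp. Among the tested oleosin genes, LOC103929926 was at −0.31 on the log2 scale and was not called. LOC103926613 was at 0.54 (adjusted p = 0.033 by edgeR), short of the fold threshold. LOC103948914, whose best protein match is laccase-17, was at 0.38 (adjusted p = 0.024 by edgeR), also short of it. LOC103940401 had 18, 17 and 18 counts in the watercore libraries and 0 in each healthy library, and was called higher. It passed the count filter only because of its watercore counts, and the 3 neighbouring storage protein genes were also among the 5 calls. The number of seed genes called is therefore a description only. The vicilin-like gene LOC103947485 was called higher too, at 1.73. The part of these genes in the TIP result was not tested.

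The NIP class gave few counts. Of 10 NIP genes, 7 had 0 counts in all libraries, among them both NIP2-1-like genes, named after the silicon channel of rice, and both NIP-type genes. The 3 genes named NIP5-1, after the boric acid channel of Arabidopsis, match NIP3-1 proteins in the table and had 6 counts together over all libraries. The single tested NIP gene, LOC103943247 (NIP1-1-like, NW_008988039.1 from 3785232 to 3787835, plus strand), had 20, 12 and 13 counts in the watercore libraries and 0, 1 and 0 counts in the healthy libraries. This is a ratio of 44.7 with an exact 95% counting interval of 7.63 to 1805 (log2 fold change 5.03, standard error 0.76, adjusted p = 4.2e-04 by edgeR). Its best protein match in the table is the F-box protein CPR30, and no channel domain is annotated, so its place among the aquaporins rests on its product name alone. The 2 other NIP1-1-like genes had 0 and 3 counts over all libraries.

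All 3 tested SIP genes had their watercore libraries below their healthy libraries, and none passed the fold threshold. LOC103944428 (SIP1-2, NW_008988064.1 from 1317210 to 1321752, plus strand) had 72.9, 75.7 and 66.6 CPM in the watercore libraries and 104, 96.6 and 106 CPM in the healthy libraries. The difference was larger than the spread within groups, at −0.51 on the log2 scale (standard error 0.07, adjusted p = 1.9e-04 by edgeR). LOC103960858 (SIP2-1, NW_008988239.1 from 584146 to 585438, minus strand) had 2.31, 2.37 and 2.27 CPM in the watercore libraries and 5.64, 2.88 and 4.72 CPM in the healthy libraries. It changed by −0.93 on the log2 scale (standard error 0.28, adjusted p = 0.018 by edgeR), and without healthy replicate 2, the lowest healthy library, it was −1.16 (adjusted p = 0.0037) and past the threshold. Without healthy replicate 1 it was −0.71 (adjusted p = 0.066 by edgeR), without watercore replicate 1 or 3 the adjusted p was 0.051 and 0.052, and with gene length offsets it was −0.63 (adjusted p = 0.076). LOC103939264 (SIP2-1) changed by −0.79 on the log2 scale (standard error 0.38, adjusted p = 0.099 by edgeR). It had 7, 9 and 10 counts in the watercore libraries and 13, 20 and 12 counts in the healthy libraries, and it passed the count filter through the healthy ones.

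The remaining 4 SIP genes were not tested. LOC103944545 (SIP1-1-like, NW_008988065.1 from 812913 to 813828) had 3, 1 and 3 counts in the watercore libraries and 8, 13 and 14 counts in the healthy libraries. It failed the count filter, and it was called lower by DESeq2 (log2 fold change −2.33, adjusted p = 0.033) and by edgeR with no filter on low counts (−2.29, adjusted p = 0.0085). Both of these settings gave 9 higher and 3 lower aquaporin genes. LOC103932800 (SIP2-1) had 9, 13 and 12 counts in the watercore libraries and 5, 5 and 8 counts in the healthy libraries. At these low counts its watercore libraries lay above its healthy libraries, opposite to the tested SIP genes. LOC103938804 (SIP1-1-like) and LOC103939267 (SIP2-1) had 13 and 10 counts over all libraries. SIP genes were the only class in which every member had at least 1 count.

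Gene length moved with the direction of change over the whole table. Among all tested genes in 5 length classes, the shortest class (up to 1115 bases) had a median of −0.37 and the longest (from 2856 bases) one of 0.38 on the log2 scale. The median length was 1223.5 bases over the tested aquaporin genes and 1797 bases over the whole tested set, and 14 of the 18 fell in the 2 shortest classes. The 8 higher and 2 lower calls held with offsets for gene length, under which the PIP1-4 gene LOC103942423 had a log2 fold change of 0.15 and the SIP1-2 gene LOC103944428 one of −0.30. The part of length in the small differences was not tested.

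Genes of aquaporin traffic and phosphorylation, and boron transporters, were read from a separate list by product name. It holds 54 genes, of which 41 were tested, and 7 were called higher and 3 lower, close to the 17.6% and 7.54% of all tested genes. LOC103940471 and LOC103967372, called higher, passed the count filter only because of their watercore counts. LOC103939156, called lower, passed it through its healthy libraries. The numbers of calls are therefore a description of the list. By an adjusted p under 0.05 alone, 9 were higher and 19 were lower, beside 32.3% and 30.4% of all tested genes. The RMA1H1-like genes are named after a pepper RING ubiquitin ligase of the endoplasmic reticulum that holds back PIP2 proteins on their way to the cell surface. Of 5 RMA1H1-like genes, 4 were called higher, against 17.6% of all tested genes. LOC103948527 had 62.7, 69.8 and 56.4 CPM in the watercore libraries and 5.64, 4.96 and 5.71 CPM in the healthy libraries (log2 fold change 3.53, standard error 0.11, adjusted p = 1.2e-07 by edgeR). LOC103934602 rose by 1.87, LOC103944218 by 1.11 and LOC103947622 by 1.10 on the log2 scale, and LOC103931103 differed by 0.27 on that scale (adjusted p = 0.13 by edgeR).

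Among the vesicle fusion proteins, syntaxin-121 delivers PIP2 channels to the plasma membrane in Arabidopsis and maize. The syntaxin-121-like gene LOC103940481 had 66.6, 60.9 and 61.2 CPM in the watercore libraries and 31.7, 29.6 and 29.3 CPM in the healthy libraries, and rose by 1.06 on the log2 scale (standard error 0.07, adjusted p = 3.7e-06 by edgeR). LOC103940471, another syntaxin-121-like gene, had 132 counts over the watercore libraries and 0 over the healthy libraries, at least 43.7-fold higher when the healthy group is set to 3 counts in total. Of the VAMP722 genes, the most abundant, LOC103928704, had 131 ± 8.48 CPM in watercore pulp and 215 ± 15.7 CPM in healthy pulp. It was at −0.71 on the log2 scale (adjusted p = 4.4e-05 by edgeR), short of the fold threshold. LOC103967372, at 1.76 ± 0.266 CPM in watercore pulp and 0.595 ± 0.310 CPM in healthy pulp, was called higher (1.56 on the log2 scale). LOC103948008 was called lower (−1.45, adjusted p = 0.015 by edgeR). The groups of LOC103948008 overlapped, with 3.74 CPM in healthy replicate 1, and it was not called without watercore replicate 3. Of 5 tested cornichon genes, whose products sort membrane proteins in the early secretory pathway, 4 were lower by adjusted p alone (30.4% of all tested genes were) and 1 of these, LOC103939156, was called lower (−2.02, adjusted p = 5.6e-04 by edgeR; 7.54% of all tested genes were).

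The 14-3-3 genes, whose products bind phosphorylated channels and pumps, held 10 of 13 tested members that were lower by adjusted p alone, where all tested genes gave 30.4%, and 1 of them, LOC103947248, was called at −1.09, which was not called without watercore replicate 1. The kinase gene LOC103968007, named SRK2E after the abscisic acid kinase that phosphorylates a PIP2 channel in Arabidopsis guard cells, was at −0.66 on the log2 scale (adjusted p = 5.2e-04 by edgeR). The 3 tested calcium-dependent protein kinase genes of the list and the tested translocator gene LOC103934132 were not called. Of these, the kinase gene LOC103927303 was lower at −0.32 on the log2 scale (adjusted p = 8.8e-04 by edgeR). None of the 3 tested boron transporter genes was called, and LOC103961247 was higher at 0.82 on the log2 scale (adjusted p = 6.2e-04 by edgeR).

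Marker lists were read because the labels name both skin and pulp. Of 22 epidermis and cuticle genes, 1 was tested and 11 had 0 counts, and their summed level was 3.29 to 4.54 CPM in watercore libraries and 2.11 to 4.22 CPM in healthy libraries. By FPKM they summed to 1.35 ± 0.0268 in watercore pulp and 0.823 ± 0.192 in healthy pulp, without overlap. The tested gene, LOC103947140, and LOC103965506 held much of the CPM, and their best protein matches are FLX-like 3 and DCC1. Of 16 xylem genes none was tested and 8 were at 0, with sums of 0.329 to 0.417 CPM in watercore libraries and 0 to 0.0680 CPM in healthy libraries. Phloem genes (12, of which 1 at 0) summed to 165 to 178 CPM in watercore libraries and 136 to 156 CPM in healthy libraries. Most of this sum came from LOC103946488, with 109 ± 6.77 CPM in watercore pulp and 105 ± 5.68 CPM in healthy pulp. Its best protein match is EH domain-containing protein 1, and no phloem protein domain is annotated. Of 6 tested phloem genes, 2 were called higher and 1 lower, beside 17.6% and 7.54% of all tested genes. LOC103952670 (PHLOEM PROTEIN 2-LIKE A10-like) had 39.5 ± 2.37 CPM in watercore pulp and 12.6 ± 3.19 CPM in healthy pulp, and was called higher (1.65). LOC103949844 (1.79) and LOC103941863 (−1.38) were the other calls, and each passed the count filter only through the group where it was high. Chlorophyll-binding protein genes (27, of which 3 at 0) summed to 75.4 to 78.2 CPM in watercore libraries and to 83.6 to 93.7 CPM in healthy libraries. By FPKM the chlorophyll-binding protein genes summed to 66.1 ± 0.527 in watercore pulp and 61.7 ± 3.95 in healthy pulp with overlapping groups. Of 11 tested, 2 were called higher and 3 lower, where all tested genes gave 17.6% and 7.54%. LOC103956843, of that list but without a protein match, had 6.07 ± 1.27 CPM in watercore pulp and 26.2 ± 3.11 CPM in healthy pulp. Its given length of 4894 bases is longer than its span from 66818 to 67788, so its FPKM is unsure. The part of these marker lists in the aquaporin results was not tested.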

How the data were processed

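After read trimming, the authors aligned to a genome of Pyrus betulifolia using Hisat2. The deposited table, however, names LOC genes on NW_ scaffolds. Its build, the counting tool and the use of strand were not given in the sources used here. Similar genes may share reads. The authors deposited unnormalized counts per gene and library, FPKM values, 1 signal column per group (their mean of scaled counts), and the log2 fold changes, p-values and adjusted p-values of their own DESeq2 comparison, which were not used.

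Counts were tested with the quasi-likelihood test of edgeR 4.0.16 (R 4.3.3) on all 6 libraries, with the fold and adjusted p thresholds of the study's methods, TMM factors, filterByExpr at its default minimum count of 10 and Benjamini-Hochberg adjustment over 21200 genes. A standard error is the log2 fold change over the square root of F. CPM use TMM library sizes. Class sums and shares carry no test. For a gene at 0 counts, 3 counts per group served as the floor. Within groups, chi-square per degree of freedom between libraries was 4.30 to 10.9, above counting noise, and every library was kept as its own replicate.

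The alternatives were DESeq2 1.42.0, RLE and total-count scaling, no filter, a minimum of 10 counts in all libraries, a block for the replicate number, gene length offsets, no minimum fold change, limma 3.58.1 on log2(FPKM + 1) and log2(FPKM + 0.1) and with a mean FPKM of at least 1, and each library left out. Members by the whole description field were added after seeing the data. Every tested member is named, with values per library for called members and the 2 most abundant of each class, and untested members are named from 10 counts in a library. Called genes of the partner list are named. LOC103931103, LOC103961247, LOC103968007, LOC103934132, LOC103957397, LOC103928704, LOC103927303, the marker genes named, and the untested members below 10 counts, were named after their values were seen. The members and lists were chosen with earlier results of these data known. The pipeline was tested on simulated data. Python 3.11.15 with pandas 2.3.3, numpy 2.4.6, scipy 1.17.1 and matplotlib 3.10.9 was used.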

Additional observations from a re-analysis of the deposited data

How the results depend on the processing

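Of the 18 tested members, 7 kept their direction and their side of the threshold under every alternative that tested them. The 8 higher and 2 lower calls became 5 and 2 with at least 10 counts in every library, which leaves 3 members untested, 5 and 1 with limma on log2(FPKM + 1), with or without a minimum mean FPKM, and 8 and 6 with no minimum fold change. With each library left out in turn they were 7 to 8 and 1 to 3, the 1 without healthy replicate 3. By the whole description field 9 members were higher. The same settings gave 2205 higher and 1047 lower genes over the whole table with at least 10 counts, 2273 and 824 with limma, 2101 and 811 with the minimum mean FPKM, 6840 and 6435 with no minimum fold change, and 3736 to 4060 and 1530 to 1655 with a library left out. Partner genes called lower were 19 with no minimum fold change and 2 to 4 with a library left out. LOC103942423 turned to 0.15 with gene length offsets. LOC103937187 turned to 0.12 with gene length offsets and lay between −0.2065 and 0.0157 with a library left out, highest without healthy replicate 3. LOC103957407 turned to 0.0046 with DESeq2, 0.0125 with RLE scaling, 0.0579 with at least 10 counts, 0.34 with gene length offsets, 0.038 with limma on log2(FPKM + 1), with or without the minimum, 0.0522 with log2(FPKM + 0.1), and lay between −0.22 and 0.40 with a library left out. The causes were not tested. Deviations of same-numbered libraries from their group means had correlations between −0.003 and 0.04. With 3 libraries per group this cannot show whether the replicate numbers pair the samples. With the replicate block 8 members were higher and 2 lower, and LOC103957407 had 0.0298. The ratio of the summed NIP genes was 6.67 to 33.7 with a library left out, at a few counts per library. No scaling moved the median of all genes by over 0.1. Depth limits the 38 untested members, 24 of them without a count.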

Other observations

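The table holds 4 protein-coding genes that carry an aquaporin-type protein match or the major intrinsic protein domain but no aquaporin in the product name. Of these, LOC103963861 (NW_008988294.1 from 101567 to 102688) was abundant. Its product name is ribosome-inactivating protein bryodin II-like, while its best protein match is the aquaporin PIP1-2 and its annotated domain is that of the major intrinsic proteins. It had 283, 259 and 263 CPM in the watercore libraries and 58.5, 50.8 and 65.8 CPM in the healthy libraries, with a log2 fold change of 2.20 (standard error 0.09, adjusted p = 4.1e-07 by edgeR) and 2.11 to 2.30 over its alternatives. Its given length of 1873 bases is longer than its span. Which of the 2 annotations holds for the counted reads was not tested. The other 3 genes, LOC103957555, LOC103964979 and LOC103927184, had 1, 1 and 0 counts in their highest library.

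The product name and the protein match also part ways inside the family. Of the 53 members with a class in their name, 50 have a protein match that names the same class. The exceptions are LOC103930703 and LOC103948868, which have no protein match, and LOC103943247, which matches the F-box protein CPR30. Each of these exceptions was called higher. The annotated domain is missing in 9 of the 56 members, 5 of which were tested.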
